A study of Homo sapiens with 4 samples.

Results

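The genes described here are feedback inhibitors of the Wnt pathway, AXIN2, NKD1, DKK1, RNF43, ZNRF3, APCDD1 and SP5, and the TCF/LEF transcription factor genes LEF1, TCF7 and TCF7L2. They were taken as all probe sets to which the platform annotation gives 1 of these 10 symbols and no other. The rule found 23 of the 54675 probe sets on the array and 9 of the 10 genes, out of 19775 genes with a single symbol. TCF7 was not analysed here, because the annotation used names no probe set for it, so the TCF/LEF class holds 2 genes and the feedback class 7.

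RNA came from LSTGFBR2, a line of epithelial colon cancer cells that carries an inducible construct for TGFBR2, the type II TGF-β receptor. The 4 HG-U133 Plus 2.0 arrays fall into 2 groups, 2 of cells given TGF-β1 (5 ng/ml for 16 hours) and 2 of untreated cells. Doxycycline switches the construct on, and all samples carry the same protocol text on it, while the design text speaks of cells with and without the drug. Which arrays received it is not given, and the result describes 1 cell line.

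In the canonical Wnt pathway, a Wnt ligand bound to a Frizzled receptor and an LRP coreceptor stops a cytoplasmic complex built on the scaffold Axin from marking β-catenin for destruction. β-catenin then enters the nucleus, binds TCF/LEF factors and switches on target genes. Several of these targets dampen the pathway itself, which makes them both readouts and brakes of Wnt signalling. In the intestine the pathway maintains the stem cells of the crypt, and in most colorectal cancers it is active without need of a ligand.

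Of the 10 genes, 7 have at least 1 promoter window in the RefSeq table (build GRCh38.p14, 250 bases before to 50 bases after an annotated start). AXIN2, NKD1 and ZNRF3 have none there. The windows of DKK1 (chr10:52314031-52314330, plus strand) and SP5 (chr2:170715087-170715386, plus strand) are shown because, of the members with values here that have 1 window each, these are the ones that hold a TCF/LEF core, and because their expression values lay on opposite sides of the untreated level. Capitals mark the core, which was searched on both strands. It was spelled CTTTGAA or with another ending, that is CTTTGAT, otherwise CTTTGTA, and lastly CTTTGTT.
DKK1: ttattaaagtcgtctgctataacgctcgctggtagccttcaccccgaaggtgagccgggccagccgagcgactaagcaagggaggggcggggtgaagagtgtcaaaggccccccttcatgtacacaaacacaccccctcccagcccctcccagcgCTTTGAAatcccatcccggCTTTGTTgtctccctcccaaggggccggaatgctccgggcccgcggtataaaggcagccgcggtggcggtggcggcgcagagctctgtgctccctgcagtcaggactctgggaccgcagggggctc
SP5: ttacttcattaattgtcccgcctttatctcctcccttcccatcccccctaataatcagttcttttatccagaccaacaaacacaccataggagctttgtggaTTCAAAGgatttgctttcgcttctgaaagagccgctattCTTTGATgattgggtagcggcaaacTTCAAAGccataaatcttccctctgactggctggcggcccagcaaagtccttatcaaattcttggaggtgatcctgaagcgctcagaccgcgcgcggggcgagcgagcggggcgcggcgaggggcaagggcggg

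The DKK1 window held 2 cores, both on the gene's strand, and the SP5 window held 3, of which 2 were on the opposite strand. In all, 4 of the 11 member windows held a core, the others being 1 of the 3 TCF7L2 windows and 1 of the 2 TCF7 windows, against 13.8% of the 35116 windows in the table. The APCDD1, LEF1 and RNF43 windows held none of these letters. The SMAD box CAGAC, the short sequence that SMAD proteins bind, was in 6 of the 11 member windows, those of DKK1, SP5 and TCF7 and 1 each of RNF43 and TCF7L2, while 45.3% of all windows hold it. The palindrome GTCTAGAC was in no member window (0.202% of all windows). The AP-1 sequence TGANTCA was in 1 RNF43 window (7.71% of all windows). A match is a run of letters and was not tested as a binding site.

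On the array a gene is read by 1 or more probe sets, and values are RMA values on the log2 scale, so that a difference of 1 is 2-fold. Across genes the replicates correlated at r = 0.996 in both groups, against 0.990 to 0.992 between groups. The TGFBR2 probe set 207334_s_at read 14.70 and 14.92 in the TGF-β1 arrays, against 9.44 and 9.55 in the untreated arrays. The other one, 208944_at, read 10.58 and 10.76 in the TGF-β1 arrays, against 10.47 and 10.81 in the untreated arrays. The comparison below is thus one of 2 groups that also differ in this TGFBR2 signal, and the part of doxycycline cannot be told apart from that of TGF-β1. Of 10 colon epithelial markers, 9 lay above the array's median gene on all 4 arrays, all but KRT20, and 1 of the 10, CDX2, passed the test, lower in the TGF-β1 arrays. Of the fibroblast markers 1 of 8 did (COL1A1), and of the endothelial and leukocyte markers none of 6 each, and 0 of these 20 passed the test by limma. The summed log2 level of the fibroblast list was 49.4 and 48.4 in the TGF-β1 arrays, against 51.7 and 50.8 in the untreated arrays. That of the endothelial list was 35.2 and 35.6 in TGF-β1 arrays, against 35.0 and 35.2 in untreated arrays. That of the leukocyte list was 35.9 and 35.1 in TGF-β1 arrays, against 35.6 and 35.7 in untreated arrays. Within the fibroblast list COL3A1 read 7.38 and 5.83 in TGF-β1 arrays, against 9.18 and 7.48 in untreated arrays, 3.30-fold lower (limma adjusted p = 0.267). LUM read 3.06 and 3.17 in TGF-β1 arrays, against 3.52 and 3.91 in untreated arrays (limma adjusted p = 0.102). Both are named after their values were seen, and the part of these differences in the results was not tested.

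Of the 9 member genes, NKD1 and DKK1 rose with TGF-β1, 0 fell, and 7 did not pass the test (limma with Benjamini-Hochberg adjustment across the 19775 genes and a threshold of 0.05, each gene by its brightest probe set). Among all genes, 1.87% rose and 1.47% fell by the same test, 3.34% in either direction. Errors given below are limma's standard errors with n = 2 arrays in each group, and intervals are 95% ones. At an unadjusted p under 0.05, 4 members were higher (NKD1, DKK1, AXIN2 and TCF7L2) and 2 lower (SP5 and ZNRF3), against 8.18% and 8.54% of all genes. The arrays of the 2 groups did not overlap for 4 members with higher and 3 with lower values, where 21.4% of all genes were higher and 23% lower without overlap. The feedback genes lay on both sides, with 3 higher and 3 lower without overlap. In RNA of whole cultures, more cells with a transcript and more of it per cell cannot be told apart.

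**Figure D1:**
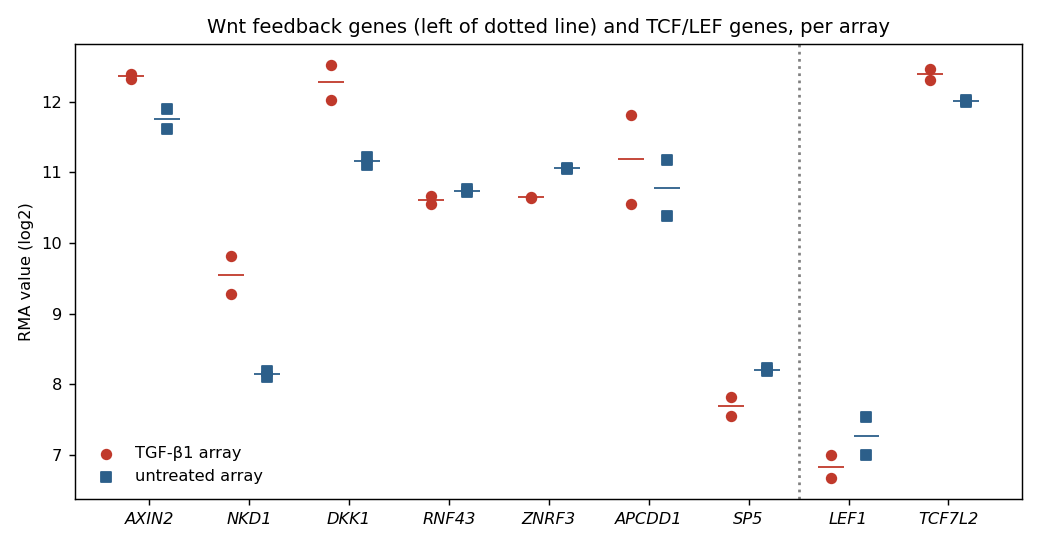
RMA values (log2) of the 9 member genes by their brightest probe set, with TGF-β1 arrays as red circles left of untreated arrays as blue squares and a short line at each group mean. NKD1, DKK1, AXIN2 and TCF7L2 are higher in both TGF-β1 arrays, ZNRF3, SP5 and RNF43 are lower, and the arrays overlap for APCDD1 and LEF1; heights of different genes are not comparable, since each probe set has its own brightness.

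NKD1 encodes Naked cuticle homolog 1, a cytoplasmic protein that binds Dishevelled and holds back the Wnt signal at that step (chr16:50548396-50649249, GRCh38.p14). Its brightest probe set, 232203_at, read 9.28 and 9.81 in the TGF-β1 arrays, against 8.10 and 8.18 in the untreated arrays. Both TGF-β1 arrays were higher than both untreated ones, and the gap was wider than the spread within either group. The gene was 2.64-fold higher, by 1.40 ± 0.180 on the log2 scale (SE; limma adjusted p = 0.0187). The other NKD1 probe sets also read higher without overlap, with smaller changes. At 229481_at the values were 8.07 and 8.44 in TGF-β1 arrays, against 7.31 and 7.42 in untreated arrays (log2 fold change 0.88). At 1553115_at they were 7.90 and 8.05 in TGF-β1 arrays, against 7.43 and 7.24 in untreated arrays (0.64). The size of the NKD1 change therefore depends on which probe set is read, and the mean of the 3 gave a log2 fold change of 0.98 (limma adjusted p = 0.0206). NKD1 lost its call when untreated replicate 1 (limma adjusted p = 0.148), untreated replicate 2 (0.101) or TGF-β1 replicate 2 (0.0575) was left out, and kept it when TGF-β1 replicate 1 was (0.0304), with log2 fold changes of 1.14 to 1.67.

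DKK1 encodes Dickkopf-1, a secreted protein that binds the coreceptors LRP5 and LRP6 and keeps them from joining a Wnt receptor complex (chr10:52314281-52317657). Its 1 probe set, 204602_at, read 12.52 and 12.02 in the TGF-β1 arrays, against 11.21 and 11.11 in the untreated arrays. The TGF-β1 arrays differed from each other by 0.50, the untreated ones by 0.10, and the groups did not overlap. DKK1 was 2.16-fold higher, by 1.11 ± 0.175 on the log2 scale (SE; limma adjusted p = 0.0328). It passed without TGF-β1 replicate 2 (limma adjusted p = 0.0404) but not without TGF-β1 replicate 1 (0.0960), untreated replicate 1 (0.175) or untreated replicate 2 (0.159), and its log2 fold change ranged from 0.86 to 1.36 over these fits. Adjusted over the 54613 probe sets that are not array controls in place of genes, the limma p of DKK1 was 0.0615. By the study's own signature rule, an unadjusted limma p under 0.05 with at least a 2-fold rise, NKD1 and DKK1 were the 2 members included (1.02% of all genes).

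AXIN2 is the Axin paralog that β-catenin itself switches on, and a widely used readout of Wnt activity (chr17:65528563-65561648). Its brightest probe set, 222696_at, read 12.39 and 12.32 in TGF-β1 arrays, against 11.89 and 11.61 in untreated arrays. The groups did not overlap there or at any of the other 3 AXIN2 probe sets, which gave log2 fold changes of 0.60 (222695_s_at), 0.64 (224176_s_at) and 0.76 (224498_x_at). At the gene level the log2 fold change was 0.61 ± 0.128 (SE), a 1.53-fold difference with an interval of 0.30 to 0.92, and it did not pass (limma adjusted p = 0.0655). AXIN2 did pass with an intensity trend in the variance model (0.0431) and when genes with a mean log2 value under 7 were left out (0.0453). The 4 probe sets read 1 RNA on the same 4 arrays and are not independent of each other. The suffix _x_at marks probe sets with probes that can also match other transcripts.

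ZNRF3 and RNF43 are related membrane ubiquitin ligases that remove Frizzled receptors from the cell surface, and R-spondins raise Wnt signalling by taking them away. Each has 1 probe set. ZNRF3 (chr22:28883572-29057488) read 10.64 and 10.65 in TGF-β1 arrays, against 11.05 and 11.06 in untreated arrays. The replicates lay within 0.012 of each other in both groups, the tightest of the members' brightest probe sets. The log2 fold change of -0.41 ± 0.096 (SE) did not pass limma's test, which draws each gene's spread toward that of all genes (adjusted p = 0.0847, interval -0.64 to -0.18). RNF43 (chr17:58352500-58417534) read 10.67 and 10.55 in TGF-β1 arrays, against 10.72 and 10.76 in untreated arrays. Its log2 fold change of -0.13 ± 0.101 (SE) stayed short of the threshold (limma adjusted p = 0.636), and its interval ran from -0.38 to 0.12. Neither ligase thus had a higher value in any TGF-β1 array than in an untreated one, while NKD1, DKK1 and AXIN2 did in both.

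SP5 is a zinc finger transcription factor of the Sp family, a direct Wnt target that represses other Wnt targets (chr2:170715337-170718078). Its 1 probe set, 235845_at, read 7.82 and 7.55 in TGF-β1 arrays, against 8.23 and 8.18 in untreated arrays. The groups did not overlap. The log2 fold change was -0.52 ± 0.124 (SE) and did not pass (limma adjusted p = 0.0901, interval -0.82 to -0.22). The SP5 window above holds 3 TCF/LEF cores and the DKK1 window 2. Both were shown in part because these genes had values on opposite sides of the untreated arrays, so that contrast is not a result.

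APCDD1 encodes a membrane glycoprotein that binds Wnt ligands and LRP5 and inhibits signalling (chr18:10454635-10489949). Its brighter probe set, 225016_at, read 11.82 and 10.55 in TGF-β1 arrays, against 11.17 and 10.38 in untreated arrays. Replicate 1 was the higher array in both groups, by 1.27 in the TGF-β1 and 0.79 in the untreated group, and the groups overlapped. The other probe set, 240211_at, had the same order, 7.39 and 6.45 in TGF-β1 arrays, against 6.96 and 6.17 in untreated arrays. The log2 fold change of 0.41 ± 0.437 (SE) was far from the threshold (limma adjusted p = 0.755), and the interval, -0.66 to 1.47, includes a fall as well as no change and a rise of over 2-fold. Without TGF-β1 replicate 1 its sign turned (-0.23). With the replicate number as a block in the model, the limma adjusted p of APCDD1 was 0.235, still short of the threshold. The labels do not say that this number marks a pairing.

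**Figure D2:**
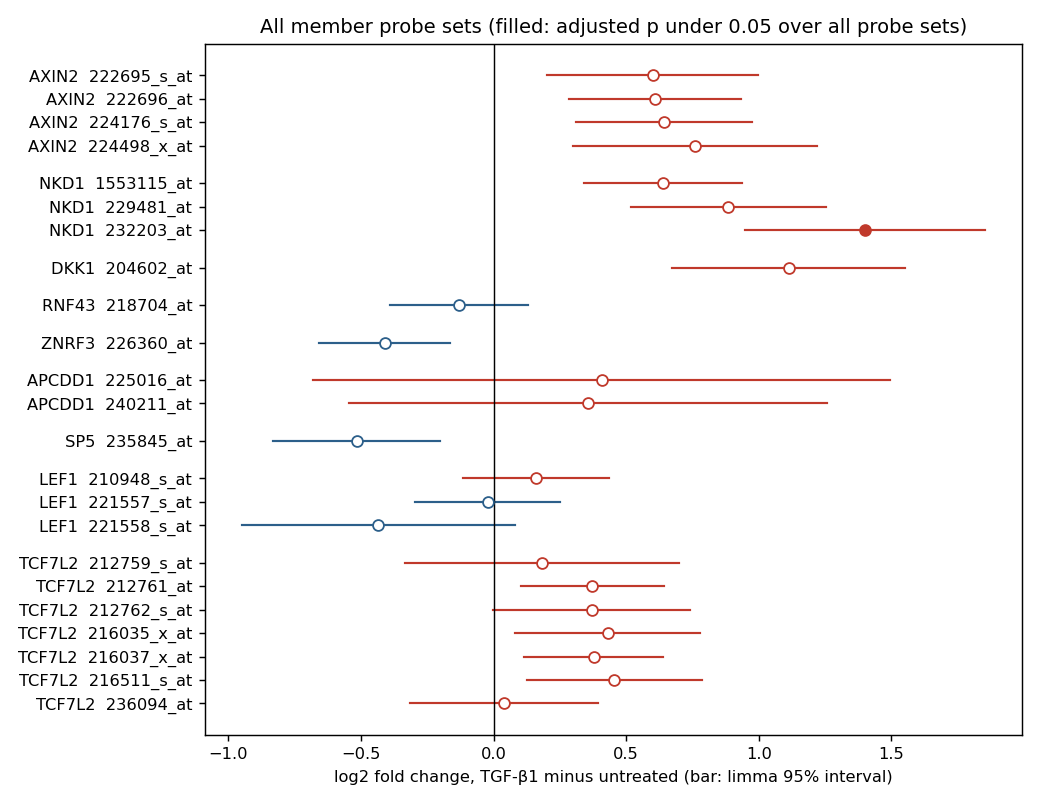
Log2 fold change, TGF-β1 minus untreated, of all 23 member probe sets, with limma's 95% interval as a bar, red above and blue below 0, and filled points for an adjusted p under 0.05 over all probe sets. The 4 AXIN2 probe sets lie close together at 0.60 to 0.76, the 3 NKD1 probe sets spread from 0.64 to 1.40 with 1 filled point, and the APCDD1 intervals are the widest.

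Among the TCF/LEF factors, which carry the β-catenin signal to DNA and act as repressors without it, neither measured member gene passed by limma (0 higher and 0 lower). TCF7L1, of the same family but not a member here, was read with the nuclear effectors below. Named after its values were seen, it averaged 5.96 in both groups. TCF7L2, the main family member of the intestinal epithelium, is read by 7 probe sets (chr10:112950247-113167678). The brightest, 212761_at, read 12.31 and 12.46 in TGF-β1 arrays, against 12.03 and 12.00 in untreated arrays. It differed by 0.37 ± 0.105 on the log2 scale (SE; limma adjusted p = 0.136), a 1.29-fold difference with an interval of 0.12 to 0.63. The groups did not overlap at 5 of the 7 probe sets, all higher, with log2 fold changes of 0.37 (212761_at and 212762_s_at), 0.38 (216037_x_at), 0.43 (216035_x_at) and 0.45 (216511_s_at). At 212759_s_at the arrays overlapped, with 8.70 and 8.57 in the TGF-β1 group, against 8.14 and 8.77 in the untreated group. At 236094_at they read 8.20 and 7.99 in TGF-β1 arrays, against 7.91 and 8.20 in untreated arrays, a log2 fold change of 0.04. TCF7L2 is known to be spliced in many forms, and which of them each probe set reads was not examined here.

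LEF1, a family member that is low in normal adult colon and often present in colon cancers, was dim on these arrays (chr4:108047548-108168932). Its brightest probe set, 221558_s_at, read 6.999 and 6.668 in TGF-β1 arrays, against 7.539 and 6.997 in untreated arrays. Replicate 1 of the TGF-β1 group and replicate 2 of the untreated group were nearly equal, so the groups overlapped. The log2 fold change of -0.43 ± 0.205 (SE) did not pass (limma adjusted p = 0.375, or 0.110 with the replicate number as a block). It was -0.10 as the mean of the 3 probe sets, -0.16 when untreated replicate 1 was left out and -0.71 when untreated replicate 2 was. The other 2 probe sets read between 4.45 and 5.40 on all arrays, under the array medians of 6.57 to 6.61, with log2 fold changes of 0.16 (210948_s_at) and -0.02 (221557_s_at). RMA values give no detection call, so whether these levels were above background is not known.

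Set side by side, the 7 feedback genes had log2 fold changes of -0.52 to 1.40 with a median of 0.41, and the 2 TCF/LEF genes had -0.43 and 0.37 with a median of -0.03. The TCF/LEF median was 0.11 with the probe sets of a gene averaged, and from -0.17 without untreated replicate 2 to 0.11 without untreated replicate 1. The median over all genes was -0.0036. The feedback median is the value of APCDD1, the middle gene of 7, and it became -0.19 when TGF-β1 replicate 1 was left out and 0.01 when untreated replicate 2 was. With either left-out array the class contrast is smaller than or opposite to the value with all arrays, so it is given as a description of these arrays. Counted over the 23 probe sets, 14 were higher and 3 lower without overlap (19.2% and 21.6% of all probe sets). The 13 feedback probe sets had 8 higher and 3 lower without overlap and a median log2 fold change of 0.61, and the 10 TCF/LEF probe sets had 6 and 0 and a median of 0.28, above the gene-level one. In the test over probe sets, 1 was called higher, 232203_at of NKD1 (limma adjusted p = 0.0392, where 0.65% of all probe sets were called higher), and 0 lower by limma. At an unadjusted p under 0.05, 12 of the 23 were higher and 2 lower, against 6.34% and 6.87% of all probe sets. Probe sets of 1 gene read the same RNA, so a gene with many of them, such as TCF7L2, weighs more in these counts.

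The rest of the Wnt pathway was read from 7 lists, with 104 of 109 distinct genes measured. Of these, 2 rose and 5 fell by limma, where 1.87% of all genes rose and 1.47% fell. Of 17 Wnt ligands, 14 receptors and coreceptors, 14 secreted antagonists with their KREMEN partners, and 16 nuclear effectors and corepressors, 0 passed by limma in each list. At an unadjusted p under 0.05 the ligands had 2 higher and 2 lower, the receptors 1 and 0, the antagonists 0 and 0 and the nuclear effectors 1 and 0, where 8.18% of all genes were higher and 8.54% lower. The medians of these lists lay between -0.05 and 0.08. The member with the largest change among genes of mean log2 7 or more was WNT9A among the ligands, with 7.68 and 8.09 in TGF-β1 arrays, against 6.95 and 7.19 in untreated arrays (limma adjusted p = 0.0613). Among the receptors it was the Frizzled gene FZD2, at 9.23 and 9.43 in TGF-β1 arrays, against 8.61 and 8.95 in untreated arrays (limma adjusted p = 0.117). Its second probe set, 238129_s_at, gave a log2 fold change of 0.02, and that of WNT9A, 1553045_at, gave 0.28. Among the nuclear factors it was BCL9L, a β-catenin coactivator, with 9.07 and 8.88 in TGF-β1 arrays, against 8.16 and 8.56 in untreated arrays (limma adjusted p = 0.108). Among the antagonists it was KREMEN2, a receptor for Dickkopf proteins, whose log2 fold change was -0.25. The second BCL9L probe set, 228065_at, gave a log2 fold change of 0.75. Of the 14 antagonists, 11 averaged under 7 on the log2 scale, as did 12 of the 17 ligands. So did 4 of the 14 receptors and 3 of the 16 nuclear effectors, and 8433 of all 19775 genes.

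Of 19 genes of cytoplasmic signalling and the destruction complex, 1 rose and 0 fell by limma (1.87% and 1.47% of all genes). At an unadjusted p under 0.05, 5 were higher and 2 lower (8.18% and 8.54% of all genes). The gene called by limma was DVL1, which encodes a protein of the Dishevelled family, to which NKD1 binds. DVL1 read 11.51 and 11.40 in TGF-β1 arrays, against 10.79 and 10.84 in untreated arrays. It was higher by 0.64 ± 0.101 on the log2 scale (SE; limma adjusted p = 0.0330), and DVL1 was not among the genes called with any 1 of the 4 arrays left out. Adjusted over probe sets in place of genes, the limma p of DVL1 was 0.0652. Of 7 R-spondins and their receptors, 0 rose and 1 fell by limma (1.87% and 1.47% of all genes). At an unadjusted p under 0.05, 1 was higher and 1 lower (8.18% and 8.54% of all genes). Of the 7, 4 averaged under 7 on the log2 scale. The gene that fell by limma was LGR5, an R-spondin receptor and marker of intestinal stem cells that works against RNF43 and ZNRF3. LGR5 read 10.68 and 11.10 in TGF-β1 arrays, against 12.23 and 12.24 in untreated arrays. LGR5 fell by 1.34 on the log2 scale (SE 0.153, limma adjusted p = 0.0136), and its second probe set, 210393_at, gave -1.30.

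Other Wnt target genes of the intestine were read beside the feedback genes, which are Wnt targets too. Of 18 measured, 5 fell and 1 rose by limma, with a median log2 fold change of -0.16. Among all genes, 1.47% fell and 1.87% rose by this test. At an unadjusted p under 0.05, 8 of the 18 were lower and 3 higher (8.54% and 8.18% of all genes). MYC, a transcription factor of cell growth, read 10.55 and 10.42 in TGF-β1 arrays, against 12.14 and 11.99 in untreated arrays. CDCA7, a cell-cycle associated gene, read 10.86 and 11.01 in TGF-β1 arrays, against 12.38 and 12.19 in untreated arrays. ASCL2, a stem cell transcription factor, read 10.73 and 11.02 in TGF-β1 arrays, against 12.05 and 12.02 in untreated arrays. Each of these genes was lower in both TGF-β1 arrays than in either untreated array, as LGR5 was. In the whole list, 9 genes were lower and 4 higher without overlap, against 23% and 21.4% of all genes. The remaining genes called in this list, named after their values were seen, were EPHB3, a receptor kinase of the crypt, with a log2 fold change of -1.11, and TNFRSF21, a death receptor, with 1.00. BAMBI, also named after its values were seen, had the largest rise of the list, 1.21, and did not pass (limma adjusted p = 0.0753). The difference between these targets and the feedback genes was not tested. With 1 array left out, 0 of all pathway genes were called higher in each of the 4 fits, and 1 to 5 were called lower, namely 1 when untreated replicate 1 or TGF-β1 replicate 1 was left out, 2 when untreated replicate 2 was and 5 when TGF-β1 replicate 2 was.

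**Figure D3:**
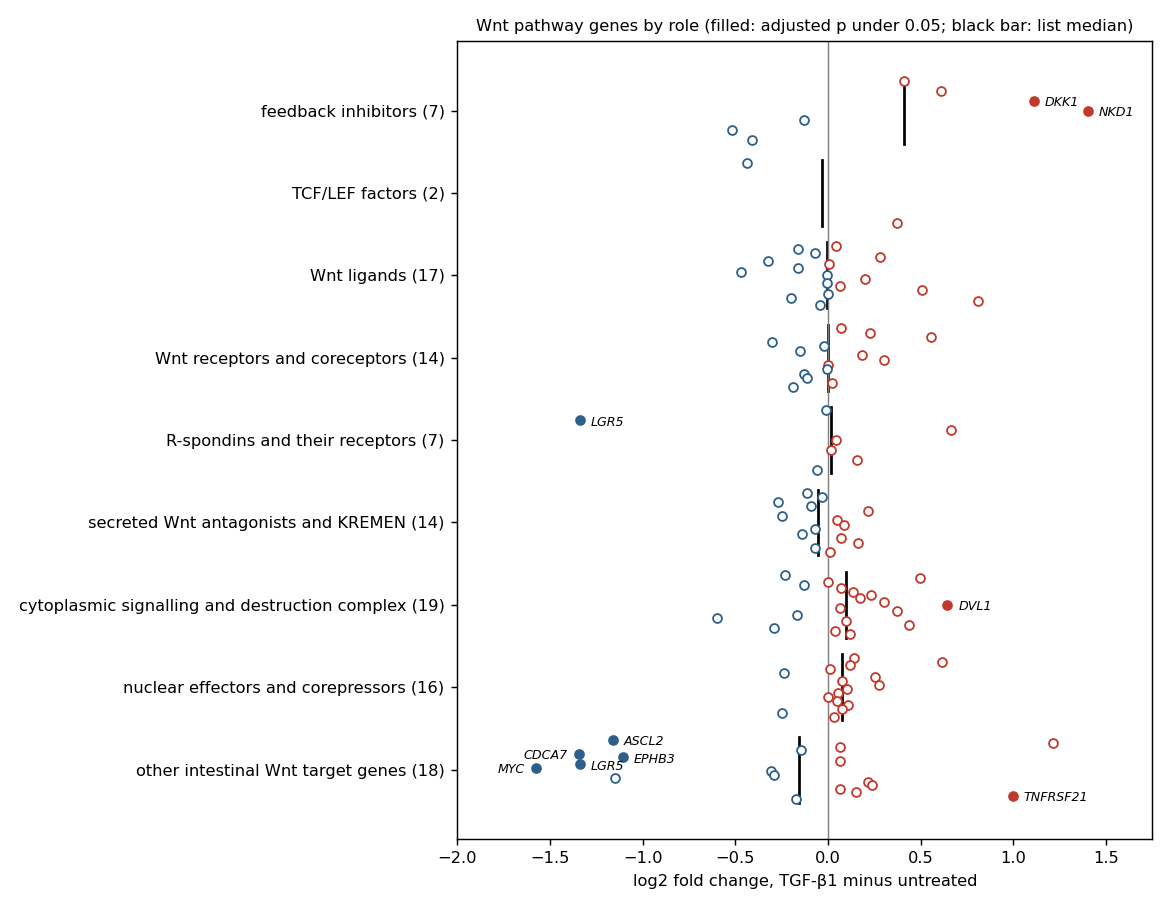
Log2 fold change, TGF-β1 minus untreated, of the member genes and of the genes of 7 Wnt pathway lists, 1 point a gene, filled for a limma adjusted p under 0.05 over all genes, with a black bar at each list's median and the number measured in parentheses. Filled points on the right are DKK1, NKD1, DVL1 and TNFRSF21, and those on the left are LGR5, which is in 2 lists, MYC, CDCA7, ASCL2 and EPHB3.

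Genes with the array pattern nearest to the called members were sought over all 19775 genes, as the Euclidean distance between the 4 array values centred on each gene's mean. For NKD1 these were CCN1 (distance 0.133), ATP9A (0.182) and ATXN1 (0.182), with log2 fold changes of 1.38, 1.42 and 1.24. For DKK1 they were LIPH (0.0935), PCDH1 (0.100) and PLEKHG1 (0.138), with 1.11, 1.08 and 1.22. With 4 arrays such a likeness holds little more than the size of the difference between the groups and the order of the replicates. NKD1 was higher in replicate 2 of the TGF-β1 group and DKK1 in replicate 1, so the 2 called members did not share their replicate order.

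**Figure D4:**
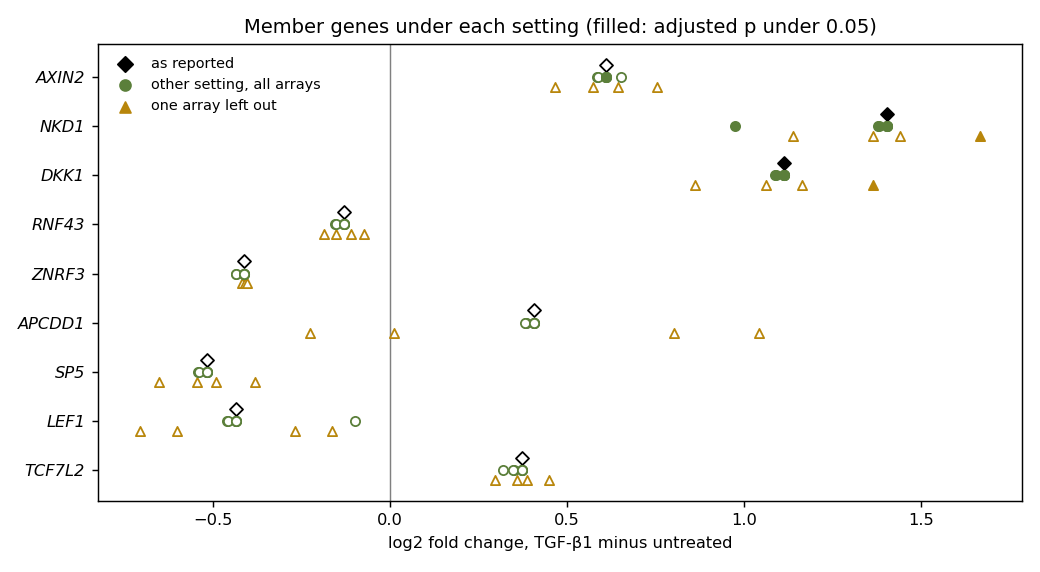
Log2 fold change, TGF-β1 minus untreated, of each member gene as reported (diamonds), under the other settings with all arrays (circles) and with 1 array left out (triangles), filled where the limma adjusted p is under 0.05. NKD1 and DKK1 are filled under the settings with all arrays and in 1 of 4 fits with an array left out, AXIN2 is filled in 2 of the circle settings, and only APCDD1 has points on both sides of 0.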

How the data were processed

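RNA of 4 samples was measured on 1-colour arrays, and groups came from the sample titles. The deposited values are log2 RMA values, which the authors made by background correction, quantile normalization and summarization per probe set, per the series' design text. RMA is also the tool in the submitters' processing notes, with no version. Quantile normalization hides a shift common to most transcripts.

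Of 54675 probe sets, 62 of them controls, 41091 have 1 symbol and 1801 have several. A current symbol was found through the Entrez ID for 41037 of the 41091 and used in place of the annotated one. It can be the same symbol, and how many differed was not counted. Each gene was read by its brightest probe set. The test was limma's (version 3.58.1, R 4.3.3; lmFit, eBayes, no covariate, two-sided), over 19775 genes and again over 54613 probe sets. Standard errors have 6.13 degrees of freedom. A permutation of 2 against 2 arrays cannot go below p = 0.333. The labels name no separate cultures, so the p-values cover the variation among these 4 arrays only, possibly technical, and the number of arrays limits precision.

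The members, the pathway lists, the motifs and the alternatives were chosen with earlier results of these data known. By rule the text names all members, up to 4 called genes a list or else the gene with the largest change of mean log2 7 or more, and the 3 genes nearest in pattern. Genes outside the rule are marked as named after their values were seen, besides TGFBR2 and the markers CDX2, KRT20 and COL1A1. Alternatives were filters on mean log2 (5 or 7), an intensity trend, 2 centrings, averaged probe sets, a replicate block, each array left out and the signature rule.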

Additional observations from a re-analysis of the deposited data

How the results depend on the processing

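Of the 9 members, 8 kept their direction under all 11 alternatives run for them; APCDD1 turned to -0.23 without TGF-β1 replicate 1 and reached 1.04 without TGF-β1 replicate 2. NKD1 and DKK1 passed in all 7 alternatives with every array kept, and 3 members were called with an intensity trend or a mean log2 of at least 7, AXIN2 being the third; these settings called 4.06% and 8.02% of the genes they tested, against 3.34%. With 1 array left out, 1 residual degree of freedom remains and 70 to 104 of all 19775 genes were called in place of 660. The member genes called higher numbered 0 to 1, the pathway genes called higher 0 and called lower 1 to 5, the member probe sets called higher 0, and the feedback median ran from -0.19 to 0.75. Pathway genes called higher numbered 6 with a mean log2 of at least 7 and 1 by the signature rule, against 2. Member probe sets called higher numbered 3 with a mean log2 of at least 7, 2 with the trend and 2 by the signature rule, against 1. Under the replicate block, 561 genes were called; pathway genes called higher numbered 4 and member probe sets called higher 0, while the member genes called remained NKD1 (limma adjusted p = 0.0348) and DKK1 (0.0423). Arrays of the same number shared part of their deviation (r = 0.364 across genes), but the labels do not say that the number marks a pairing. Centring moved the median of all genes by under 0.03. The causes of these differences were not tested.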
